A study of Mus musculus with 77 samples.

Results

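PU.1 binding was compared between 2 neighbouring stages of mouse granulocyte-monocyte development, the pre-granulocyte-monocyte progenitor (preGM) and the granulocyte-monocyte progenitor (GMP). The measure was the PU.1 ChIP-seq signal at every enhancer of the deposited table, so all 44002 of 44002 enhancers entered, and the signal came from 4 of the 77 samples of the series, 2 libraries at each stage. Each enhancer received the log2 ratio of GMP to preGM signal with 0.6 added to both, and the median ratio of all enhancers was subtracted. An enhancer with a centred log2 ratio of at least 1 is called GMP-higher here and one of at most -1 is called GMP-lower, which is a size class and not a test. The table holds 1 pooled value per stage and does not separate the libraries, so no difference below has a replicate check, an error or a p-value.

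PU.1, encoded by Spi1, is an ETS-family transcription factor that is required for myeloid and lymphoid development and can bind DNA within chromatin and help to open enhancers. In myeloid progenitors it often binds beside CEBPA, the factor that drives granulocytic differentiation. H3K4me1 is a histone mark found on enhancers whether active or poised, and H3K27ac marks the active ones.

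All cells were sorted from freshly harvested mouse bone marrow. The wildtype preGM were Lin-, Sca-1-, ckit+, CD150- and CD105-, and the wildtype GMP were Lin-, Sca-1-, ckit+, CD150- and FcgRII/III+. PU.1 was precipitated with the Santa Cruz antibody Sc-352. For comparison the table also gave PU.1 in wildtype LSK cells, the multipotent progenitors that precede preGM, and in preGM of Cebpa KO mice. It gave H3K27ac and H3K4me1 in wildtype LSK, preGM, GMP and Mac1+ Gr-1+ granulocytes, and CEBPA in wildtype preGM. These 13 columns each stand for 2 libraries. The sorted stages were not checked against RNA here, and the depth of the libraries is unknown.

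Most enhancers had similar PU.1 signal at both stages. Of all enhancers, 83.8% had a centred log2 ratio under 0.5 in size and 98.5% lay within 2-fold. The GMP-higher class held 441 enhancers (1.00% of all) and the GMP-lower class 236 (0.536%), or 1.54% in either direction. The classes touched 360 and 204 of the 10096 genes, with 10 genes in both. The overlap that unrelated classes would give was not computed. The last GMP-higher enhancer had a ratio of 1.001 and the next below it 0.9998, so the classes are ends of a continuous distribution. The pseudocount set the size of the classes, with 1538 higher and 724 lower enhancers at 0.15 and 75 and 27 at 2.4. The split of the classes depended on the zero point. Without centring, where the median enhancer stood at -0.07, there were 338 higher (0.768%) and 341 lower enhancers (0.775%). With each column scaled to its sum there were 586 and 166, and with centring on the enhancers of the upper quartile of PU.1 signal 662 and 128.

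**Figure D1:**
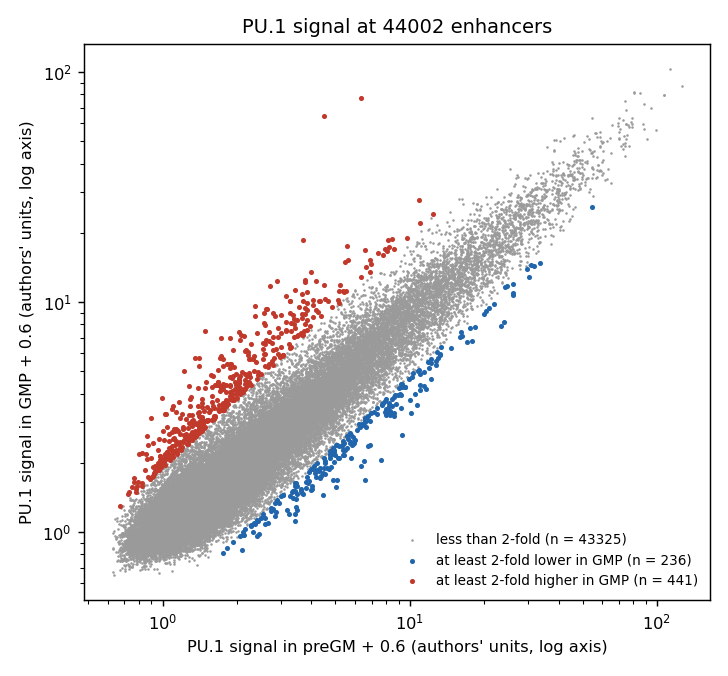
PU.1 signal plus 0.6 in preGM (x axis) and GMP (y axis), both log axes in the authors' units, with 1 point per enhancer. The 441 GMP-higher points (red) lie at lower preGM signal than most of the 236 GMP-lower points (blue), and 2 red points with GMP signals of 63.6 and 76.5, in Arf6 and Zfp821, stand apart from the cloud.

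The share of PU.1 signal that changed place was small. With both columns scaled to the same total, 12.1% of the signal lay at different enhancers in GMP than in preGM, and 7.90% when the enhancers of each gene were first added up. The same measure for H3K27ac was 17.9% between enhancers and 11.6% between genes. Adding up enhancers within genes can only lower this measure or leave it unchanged. Noise in either column also adds to it, by an amount that cannot be computed without replicates and may differ between PU.1 and H3K27ac. The GMP-higher enhancers held 0.519% of the PU.1 signal in preGM and 1.76% in GMP. The GMP-lower enhancers held 1.22% and 0.529%.

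The classes also differed in columns that did not enter the ratio. At GMP-higher enhancers the median PU.1 signal was 0.800 in LSK, 1.13 in preGM, 0.803 in Cebpa KO preGM and 3.45 in GMP. At GMP-lower enhancers it was 3.45 in LSK, 5.06 in preGM, 3.77 in Cebpa KO preGM and 1.78 in GMP. At all other enhancers the LSK and KO medians were 0.993 and 1.06. The preGM and GMP values set the classes, and PU.1 in LSK follows that in preGM, whose median was 0.510 in the lowest and 7.15 in the highest quintile of PU.1 in LSK. The LSK and KO medians are therefore not independent of the choice of enhancers with high or low preGM signal.

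The histone marks separated the classes along the path to granulocytes. The median H3K4me1 signal of GMP-higher enhancers was 0.959 in LSK, 1.16 in preGM, 3.37 in GMP and 6.78 in granulocytes. All other enhancers had 3.08 in preGM and 5.40 in granulocytes, so GMP-higher enhancers were below them in preGM and above them in granulocytes. GMP-lower enhancers had medians of 3.68, 3.38, 3.21 and 1.13 in the same order, close to the others in preGM and far below them in granulocytes. Median H3K27ac at GMP-higher enhancers was 0.650 in preGM, 1.24 in GMP and 2.49 in granulocytes, against 0.848, 0.795 and 0.614 at GMP-lower enhancers. The authors annotated 74.4% of GMP-higher enhancers with granulocytes among their stages, against 42.5% of all and 6.78% of GMP-lower ones. That annotation may rest on these same marks, so the courses toward granulocytes are not independent of how the enhancers were listed.

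**Figure D2:**
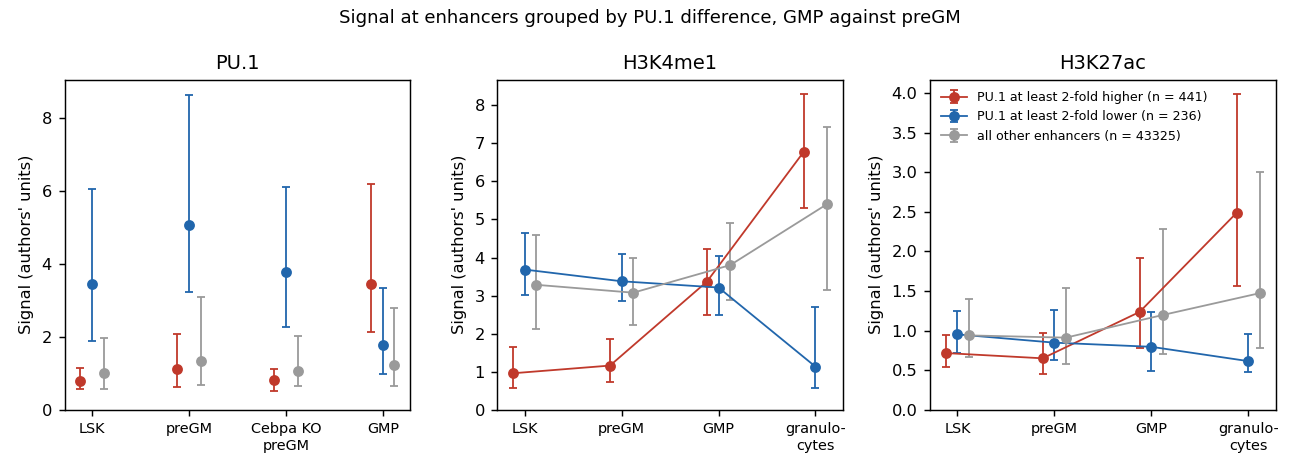
Median signal in the authors' units (points) with the 25th and 75th percentiles over enhancers (bars) for PU.1, H3K4me1 and H3K27ac, by stage on the x axis and by PU.1 class in colour. The bars show the spread over enhancers and not over replicates. H3K4me1 of the GMP-higher class goes from 1.16 in preGM to 6.78 in granulocytes, while that of the GMP-lower class goes from 3.38 to 1.13.

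The next step, from GMP to granulocytes, uses no PU.1 value and no preGM value. It is still not independent of the stage annotation, in which the classes differ and which may rest on these marks. H3K27ac was at least 2-fold higher in granulocytes than in GMP, after centring, at 132 of the 441 GMP-higher enhancers (29.9%), against 10.8% of all enhancers. It was at least 2-fold lower at 19 of the 236 GMP-lower enhancers (8.05%), against 8.24% of all. Their median centred ratio was -0.23, against 0.61 at GMP-higher enhancers and 0.00 at the others. H3K4me1 was at least 2-fold lower in granulocytes at 112 of the 236 GMP-lower enhancers (47.5%), against 10.2% of all. A 2-fold higher value was found at 19 of the 441 GMP-higher enhancers (4.31%), against 3.43% of all. The median H3K4me1 ratios were -0.98 at GMP-lower, 0.41 at GMP-higher and 0.00 at the other enhancers. The medians of both marks thus differed between the classes in the same direction, also where the 2-fold share was near that of all enhancers.

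The authors annotated each enhancer with stages and with bound factors. No source used here gives the criterion, which may draw on the same PU.1 or histone mark data, so the counts are descriptions. Of the GMP-higher enhancers, 239 of 441 carried the stage class of granulocytes alone (54.2%, against 21.2% of all enhancers). Any class with granulocytes held 74.4% of them, against 42.5% of all, and any class with LSK held 2.72%, against 15.3%. Of the GMP-lower enhancers, 156 of 236 carried the class of preGM and GMP (66.1%, against 29.1% of all), and 6.78% had a class with granulocytes. Read from the annotation, 2.56% of the enhancers of granulocytes alone were GMP-higher, and 0.0704% of those of preGM and GMP were.

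By the factor annotation, enhancers with both PU.1 and CEBPA were GMP-higher in 206 of 4054 cases (5.08%) and GMP-lower in 7 (0.173%). Enhancers with CEBPA and no PU.1 were GMP-higher in 137 of 5395 cases (2.54%). Enhancers with PU.1 and no CEBPA had the opposite balance, with 50 of 8387 GMP-higher (0.596%) and 138 GMP-lower (1.65%). The CEBPA signal of wildtype preGM, a separate set of libraries, gave a like order: 2.67% of the enhancers in its highest quintile were GMP-higher and 0.295% of those in its lowest quintile.

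**Figure D3:**
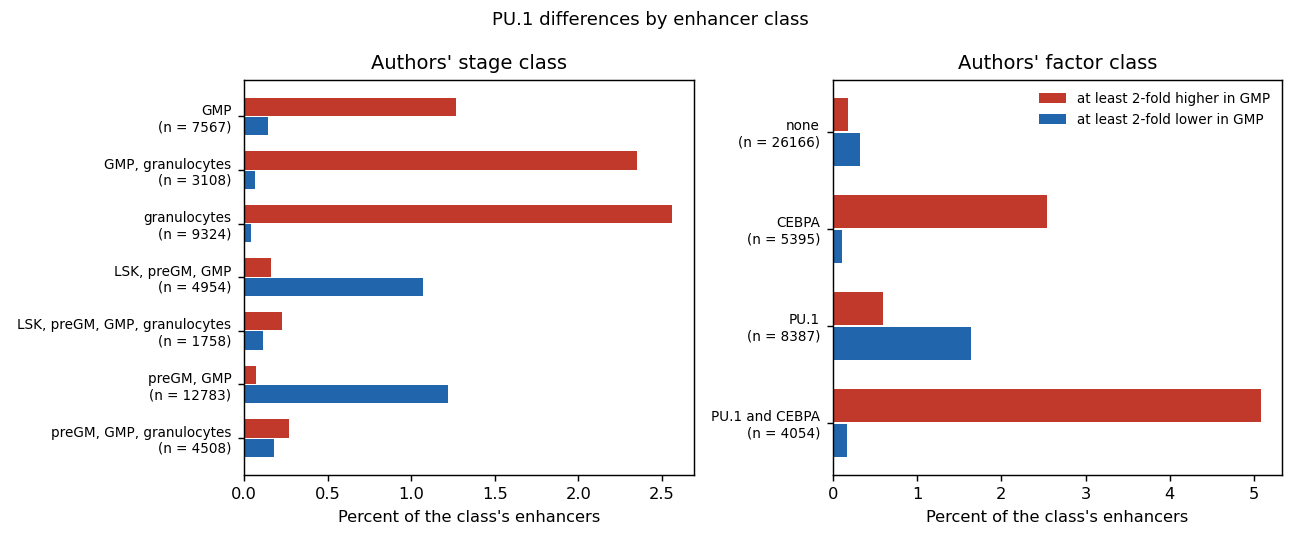
Percent of the enhancers of each authors' class (x axis) that were GMP-higher (red) or GMP-lower (blue), for stage classes on the left and factor classes on the right, with the number of enhancers of each class. The red bars are longest for granulocytes (2.56%) and for PU.1 with CEBPA (5.08%), and the blue bars for PU.1 alone (1.65%) and for preGM with GMP (1.22%).

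PU.1 signal itself differs between these groups. The shares were therefore also taken within the 17602 enhancers in the highest 2 quintiles of PU.1 in LSK, a column that the ratio does not use, of which 88 were GMP-higher and 213 GMP-lower. There, 62 of the 3521 enhancers in the lowest quintile of preGM H3K4me1 were GMP-higher (1.76%), and between 0.0852% and 0.312% of those in the other quintiles. For CEBPA in preGM the GMP-higher share was 0.199% in the lowest quintile and 1.48% in the highest, and the GMP-lower share was 1.70% and 0.454%. The highest CEBPA quintile also had the most PU.1 in preGM, with a median of 4.59 against 3.65 in the lowest. This comparison was chosen after the values were seen.

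H3K27ac over the same step differed in the same direction as PU.1 between the classes, with wide overlap. H3K27ac and PU.1 come from different libraries, and the H3K27ac ratio was made the same way with 0.7 added. Its uncentred median was 0.29, which was subtracted. The median centred H3K27ac log2 ratio was 0.19 at GMP-higher and -0.36 at GMP-lower enhancers, a difference of 0.55. The median lay below 0 at each band of PU.1 ratio under -0.25 and above 0 at each band over 0. The H3K4me1 medians were 0.49 and -0.25, a difference of 0.74. The marks used unlike pseudocounts, and that of H3K4me1 was not varied. With an H3K27ac pseudocount 4 times smaller the H3K27ac difference was 0.87, so the marks are not ranked by this spread.

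Most GMP-higher enhancers did not reach 2-fold in H3K27ac. Of the 441, 51 were at least 2-fold higher (11.6%, against 2.77% of all enhancers) and 7 were at least 2-fold lower (1.59%, against 2.13%). Of the 236 GMP-lower enhancers, 17 were at least 2-fold lower (7.20%) and 0 were 2-fold higher. By sign alone, 283 of the 441 (64.2%) lay above the H3K27ac median of all enhancers, and 54 of the 236 (22.9%) did. For H3K4me1 these counts were 410 of 441 (93.0%) and 34 of 236 (14.4%).

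Taken from the H3K27ac side, most enhancers with large differences in the mark had small PU.1 ratios, as did most of all enhancers. Of the 1219 enhancers at least 2-fold higher in H3K27ac, 51 were GMP-higher (4.18%, against 1.00% of all enhancers). A PU.1 log2 ratio under 0.5 in size was found at 79.4% of them, against 83.8% of all. Their median PU.1 log2 ratio was 0.14. Of the 936 enhancers at least 2-fold lower in H3K27ac, 17 were GMP-lower (1.82%, against 0.536% of all) and 7 GMP-higher (0.748%, against 1.00%). Their median PU.1 log2 ratio was -0.10.

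Across all 44002 enhancers the PU.1 and H3K27ac ratios had a Spearman rho of 0.129 and a Pearson r of 0.145. The points share libraries, and adjacent enhancers can share DNA fragments, so this is a description with no p. From the lowest to the highest quintile of mean PU.1 signal, rho was 0.0461, 0.0986, 0.176, 0.245 and 0.267. For H3K4me1, rho was 0.249 over all enhancers and highest in the middle quintile, at 0.318. Summed over the enhancers of each gene, the ratios of PU.1 and H3K27ac had a rho of 0.249 over the 2845 genes with at least 5 enhancers, and those of PU.1 and H3K4me1 a rho of 0.484.

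**Figure D4:**
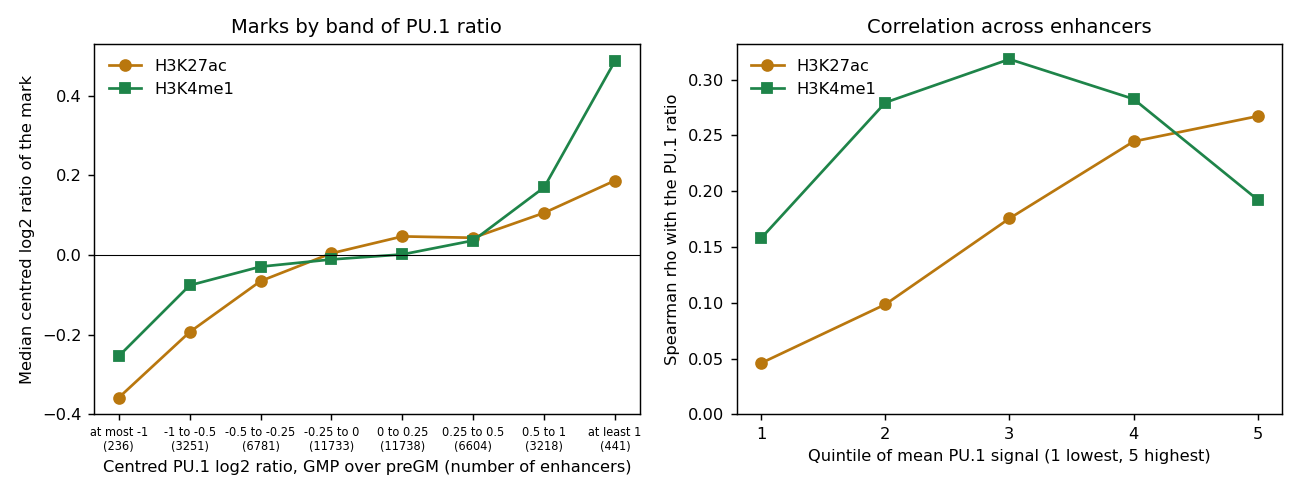
On the left, the median centred log2 ratio (GMP over preGM) of H3K27ac and H3K4me1 by band of centred PU.1 log2 ratio, with the number of enhancers in each band. On the right, the Spearman rho of the PU.1 ratio with each mark's ratio within quintiles of mean PU.1 signal: rho with H3K27ac is 0.0461 in the lowest and 0.267 in the highest quintile, while rho with H3K4me1 is highest in the middle.

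Single enhancers show both kinds of pairing, all positions being those of the table in build mm9. The strongest enhancer that was 2-fold higher in both was assigned to Acta2, which encodes smooth muscle actin, at chr19:34344785-34345178. Its PU.1 signal was 4.96 in LSK, 10.4 in preGM, 2.86 in Cebpa KO preGM and 21.6 in GMP. Its H3K27ac was 0.567 in preGM, 6.40 in GMP and 7.65 in granulocytes, and its H3K4me1 was 1.39, 2.33 and 4.35. The centred log2 ratio of GMP to preGM was 2.19 for H3K27ac and only 0.14 for H3K4me1. A pair of enhancers of Smyd3, a lysine methyltransferase, lay side by side and behaved alike. At chr1:180975793-180976143 PU.1 was 1.19 in LSK, 5.01 in preGM and 14.6 in GMP, and H3K27ac was 0.778 in preGM and 3.81 in GMP.

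Of the 17 enhancers that were 2-fold lower in both, those with the most PU.1 are given here. The enhancer of Bfsp2 at chr9:103327331-103327586 had PU.1 of 15.9 in LSK, 19.3 in preGM, 14.9 in Cebpa KO preGM and 8.26 in GMP, and H3K27ac of 1.64 in preGM and 0.499 in GMP. An enhancer of Irf2, which encodes an interferon regulatory factor, at chr8:47934321-47934527 had PU.1 of 11.5, 17.3, 8.60 and 6.18 in the same order. Its H3K27ac was 1.18 in preGM and 0.363 in GMP. CEBPA in preGM was 0.190 and 0.243 at these sites and 0.834, 0.715 and 0.404 at the next strongest of the 17, in A530016L24Rik, C130026L21Rik and Abca4, on both sides of the median of 0.533 at the enhancers outside both classes.

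The 2 enhancers with the largest PU.1 ratios went the other way in H3K27ac and stood apart in several columns. At the Zfp821 enhancer (chr8:112230510-112231226) PU.1 was 8.65 in LSK, 5.74 in preGM, 39.6 in Cebpa KO preGM and 76.5 in GMP, and H3K27ac was 45.6 in preGM, 1.87 in GMP and 1.10 in granulocytes. At the Arf6 enhancer (chr12:70462536-70462612) PU.1 was 4.11, 3.89, 19.5 and 63.6 in the same order, and H3K27ac was 22.2 in preGM and 4.72 in GMP. Both thus also had far more PU.1 in Cebpa KO than in wildtype preGM. The cause of these values was not tested. Without these 2 enhancers rho between PU.1 and H3K27ac was 0.129.

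Next in PU.1 strength among the enhancers GMP-higher in PU.1 and 2-fold lower in H3K27ac came sites of Naa20, Rnf149 and Prom1. Their H3K27ac was above 0.911 in preGM, the median of the enhancers outside both classes. In GMP it was below the median of 1.20 of those enhancers. The choice of sites by a 2-fold lower H3K27ac itself favours high preGM and low GMP values, so these levels are no separate result. At the Rnf149 enhancer (chr1:39659428-39659572) PU.1 was 0.812 in LSK, 1.58 in preGM and 5.62 in GMP. Its H3K27ac was 1.05 in preGM, 0.321 in GMP and 6.80 in granulocytes. The mark was thus lowest in GMP and highest in granulocytes, for which there was no PU.1 value here. At the Naa20 enhancer (chr2:145685933-145686121) PU.1 was 3.71 in preGM and 9.47 in GMP, and H3K27ac was 1.32, 0.447 and 0.806 in preGM, GMP and granulocytes.

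Between genes, PU.1 was compared by sums over the enhancers of each gene. The threshold was 1.5-fold and not 2-fold, so the shares cannot be set against those of enhancers. Centred on the median gene, 290 of 10096 genes were at least 1.5-fold higher in GMP (2.87%) and 238 at least 1.5-fold lower (2.36%). Before centring the median gene stood at -0.10, and these counts were 186 and 432. Among the 2845 genes with at least 5 enhancers, 44 were higher (1.55%) and 22 lower (0.773%). In these genes 80.9% of the variance of the PU.1 ratio lay within genes and 19.1% between them. The ratios of all enhancers of a gene had 1 sign in 140 genes (4.92%), 71 above and 69 below 0. Noise at weak enhancers counts as variance within genes and cannot be separated without replicates. Some variance between genes, and some genes of 1 sign, also arise with no effect of the gene. That level was not computed.

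The highest gene sum with at least 5 enhancers belonged to Chst13, which encodes a carbohydrate sulfotransferase, with a centred log2 ratio of 1.53. The PU.1 sum over its 6 enhancers was 5.10 in LSK, 5.06 in preGM, 4.51 in Cebpa KO preGM and 19.7 in GMP. The difference came from 3 neighbouring enhancers with GMP signals of 5.14, 3.89 and 9.02 against 0.803, 1.07 and 1.77 in preGM. The other 3 enhancers of the cluster had 0.486 to 0.593 in GMP. All 6 lay low in preGM H3K4me1, between 0.333 and 0.625, and had 6.22 to 14.2 in granulocytes.

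Sgms2, which encodes a sphingomyelin synthase, held the most GMP-higher enhancers, 7 of 16, and was chosen for that count. Its PU.1 sum was 12.4 in LSK, 21.0 in preGM, 14.3 in Cebpa KO preGM and 47.0 in GMP, and its H3K27ac sum was 8.37 in preGM and 15.0 in GMP, a centred ratio of 0.00. The strongest of the 7, at chr3:131071372-131071972, had PU.1 of 0.968 in LSK, 1.76 in preGM, 0.368 in Cebpa KO preGM and 8.08 in GMP. Gsr, which encodes glutathione reductase, had 5 GMP-higher enhancers of 21, and its PU.1 sum was 22.6 in preGM and 38.3 in GMP. Lyst, a lysosomal trafficking regulator, had 3 of 17, with sums of 30.1 and 43.0.

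The other high sums were those of Prom1 at 1.36, Smyd3 at 1.27, Arf6 at 1.10, Atf1 at 1.04 and Neu1 at 1.01. That of Arf6, which encodes a small GTPase of membrane traffic, rested on the single enhancer above, since 10 of its 18 enhancers had ratios below 0. Neu1, the lysosomal sialidase, had 3 GMP-higher enhancers of 9. The strongest, at chr17:35070556-35070682, had PU.1 of 1.44 in LSK, 2.12 in preGM, 1.02 in Cebpa KO preGM and 11.2 in GMP, with H3K27ac of 0.890 in GMP and 3.92 in granulocytes. The summed H3K27ac ratio of Neu1 was 0.00 after centring and that of Prom1, a membrane protein of progenitors, was -0.38, so neither gene's acetylation was above the general shift.

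The lowest sums belonged to Zfp618 at -0.96, Gtf3c5 at -0.93, Prdm16 at -0.92, Vps26b at -0.84, C130026L21Rik at -0.75 and Ndfip1 at -0.75. In Prdm16, a regulator of haematopoietic stem cells, 5 of 6 enhancers had ratios below 0, and its H3K27ac sum was 5.22 in preGM and 2.65 in GMP. In Zfp618, 3 adjacent enhancers had preGM signals of 7.71, 11.5 and 7.90 and GMP signals of 2.63, 4.05 and 2.94. Another pair of enhancers of the same gene, farther along the chromosome, was slightly higher in GMP, at 0.774 and 1.06 against 0.398 and 0.451, and had CEBPA signals of 4.18 and 3.65 in preGM. Tacc3, which encodes a protein of the mitotic spindle, had only 4 enhancers, of which 3 were GMP-lower. Its PU.1 sum was 27.8 in LSK, 29.6 in preGM, 33.5 in Cebpa KO preGM and 12.5 in GMP.

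Some genes held enhancers of both classes. In Prex1, an exchange factor for Rac used in neutrophil migration, the enhancer at chr2:166446120-166446313 had PU.1 of 5.57 in LSK, 11.1 in preGM and 3.57 in GMP, with H3K4me1 of 1.54 in granulocytes. The enhancer at chr2:166478669-166478906 had PU.1 of 0.833, 0.561 and 3.09 in the same order, with H3K4me1 of 9.71 in granulocytes. Plcg2, a phospholipase of Fc receptor signalling, and Sema4d, a semaphorin, had the same arrangement. In Sema4d the enhancer with PU.1 of 1.21 in preGM and 3.09 in GMP had H3K27ac of 11.8 in granulocytes, and the one with 6.07 and 2.28 had 0.554. In Zfp36l2, with 70 enhancers, 1 was GMP-higher and 1 GMP-lower. In Msi2, an RNA-binding protein of stem cells, both members of the pair had low H3K4me1 in granulocytes, at 0.345 and 0.484.

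The genes of primary granules, the first granules made by the neutrophil lineage, were compared through each gene's strongest PU.1 enhancer. Over all 10096 genes the median ratio of these enhancers was -0.06, with 1.08% in the GMP-higher class and 0.931% in the GMP-lower class. The 6 primary granule genes had a median of 0.20, with 1 enhancer 2-fold higher. In Mpo, which encodes myeloperoxidase, all 11 enhancers had ratios above 0, from 0.09 to 0.90. The PU.1 sum of Mpo was 9.94 in LSK, 20.6 in preGM, 14.6 in Cebpa KO preGM and 30.8 in GMP. Its H3K27ac sum was 23.9 in preGM and 167 in GMP, a far larger difference than in PU.1.

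The neighbouring serine protease genes Elane and Prtn3 had the clearest PU.1 differences of the list. The PU.1 sum was 14.6 in preGM and 26.5 in GMP at the 4 enhancers of Elane, and 18.2 and 29.3 at the 6 of Prtn3. The Prtn3 enhancer at chr10:79342515-79342596 had PU.1 of 1.74 in LSK, 4.08 in preGM, 2.14 in Cebpa KO preGM and 9.51 in GMP, and H3K27ac of 1.12 in preGM and 5.76 in GMP. Ctsg, the cathepsin G gene, had no 2-fold enhancer, with PU.1 sums of 6.61 and 8.73 and H3K27ac sums of 10.5 and 55.3. In Srgn, the granule proteoglycan, 1 enhancer was GMP-lower, and its PU.1 sum was 109 in preGM and 79.4 in GMP.

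Genes of later neutrophils, of adhesion and of immune receptors had single GMP-higher enhancers whose H3K27ac was highest in granulocytes. In Cxcr2, the neutrophil chemokine receptor, the enhancer at chr1:74213837-74213929 had PU.1 of 0.957 in LSK, 1.30 in preGM, 0.276 in Cebpa KO preGM and 3.49 in GMP. Its H3K27ac was 0.657 in preGM, 1.33 in GMP and 5.26 in granulocytes. In Itgam, the alpha chain of Mac1, the enhancer at chr7:135206879-135207308 had PU.1 of 1.29 in preGM and 4.77 in GMP, and H3K27ac of 0.527, 0.907 and 4.50 in preGM, GMP and granulocytes. In Itgb2, the beta chain, PU.1 was 1.46 in preGM and 4.19 in GMP, and H3K27ac was 2.03 in GMP and 6.52 in granulocytes.

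The same held for Tlr2, the receptor for bacterial lipopeptides, with PU.1 of 0.692 in preGM and 2.94 in GMP and H3K27ac of 0.301, 0.602 and 3.63 in preGM, GMP and granulocytes. In Il1r2, the decoy interleukin receptor, PU.1 was 2.80 and 7.43 and H3K27ac 0.318, 0.456 and 2.80. Fcgr2b, whose product is bound by the sort antibody that defines GMP, had a weak GMP-higher enhancer at 0.126 in preGM and 0.861 in GMP. Its strongest enhancer went the other way, with 22.1 in preGM and a ratio of -0.67, and its PU.1 sum was 63.3 and 50.3.

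These single enhancers did not move their gene lists as wholes. The secondary granule and neutrophil list had a median of 0.13 at the strongest enhancers of 13 measured genes, with 1 at least 2-fold higher. Medians were 0.14 for 5 NADPH oxidase genes, -0.07 for 9 Toll-like receptor genes, -0.09 for 10 Fc receptor genes, 0.11 for 10 integrins and selectins, and -0.15 for 17 cytokine receptors, where 1 enhancer was 2-fold higher. The 18 monocyte and macrophage genes had a median of -0.07, the 21 myeloid transcription factors -0.03 and the 15 cell cycle genes -0.08. Of these lists, those with medians under 0.1 in size changed sign when the columns were scaled to their sums, so no direction is read from them. Over all assigned enhancers the medians were -0.02 for the NADPH oxidase genes and 0.05 for the secondary granule and neutrophil genes, so neither of these lists has a direction either. The cell cycle genes had GMP-higher enhancers in Rrm2, with PU.1 of 2.55 in preGM and 6.97 in GMP, and in Mki67, with 2.21 and 5.62.

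Csf1r, the receptor of macrophage colony-stimulating factor, was on the lower side. A pair of its 11 enhancers was GMP-lower, with PU.1 of 8.37 and 8.47 in preGM and 3.34 and 3.63 in GMP, and H3K4me1 of 0.342 and 0.398 in granulocytes. Its PU.1 sum was 57.3 in LSK, 111 in preGM, 52.2 in Cebpa KO preGM and 84.9 in GMP. Id2, an inhibitor of helix-loop-helix factors, had 2 GMP-lower enhancers of 39, with PU.1 of 10.4 and 3.23 in preGM and 3.76 and 1.13 in GMP. Of its 39 enhancers, 18 had ratios above 0, and the centred log2 ratio of its PU.1 sum was only -0.10.

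The stem and multipotent progenitor genes had the lowest median of the lists on the granulocyte-monocyte path. It was -0.40 at the strongest enhancers of 25 genes, of which 6 were above 0 and 2 at least 2-fold lower. It stayed between -0.47 and -0.31 over the 4 zero points above. Over all 363 enhancers of these genes the median was -0.05, so the difference was seen at the strongest sites and not over all of them. In every list the strongest site was picked by mean PU.1 over 4 columns, preGM and GMP among them. The pick is thus not independent of the ratio. Strong sites also had lower ratios in general, with a median of -0.11 in the highest quintile of mean PU.1 signal. The list was not compared with sites of like signal. In Meis1, a stem cell homeobox gene, no enhancer reached 2-fold, and the PU.1 sum was 88.7 in LSK, 115 in preGM, 69.1 in Cebpa KO preGM and 66.6 in GMP. In Lmo2, a cofactor of stem cell transcription, 1 of 35 enhancers was GMP-lower, with a ratio of -1.27.

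**Figure D5:**
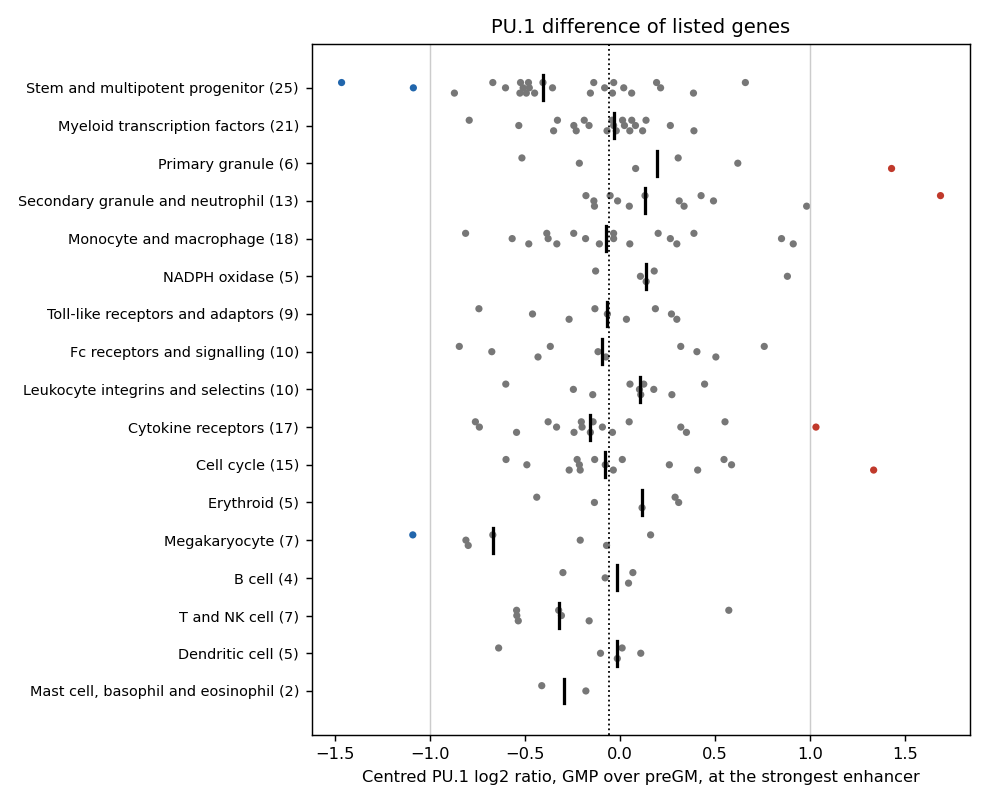
Centred PU.1 log2 ratio, GMP over preGM, at the strongest enhancer of each listed gene (points, red at least 1, blue at most -1), with the list median (black bar), the median over all genes at -0.06 (dotted line) and the number of measured genes in brackets. The stem and multipotent progenitor list has its median at -0.40 and the megakaryocyte list at -0.67, while most other medians lie near the dotted line.

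Markers of other cell types were mostly near the median of all genes or below it. The 7 megakaryocyte genes had a median of -0.67 with 1 gene above 0, and the 7 T and NK cell genes -0.32 with 1 above 0. Over all assigned enhancers the megakaryocyte median was -0.21 and the T and NK cell median -0.43. The 5 erythroid, 4 B cell and 5 dendritic cell genes had medians of 0.12, -0.02 and -0.01, the first turning to -0.03 over all assigned enhancers, and the 2 measured genes of mast cells, basophils and eosinophils -0.29. In Gata3, a T cell regulator, 1 enhancer had PU.1 of 2.88 in preGM and 0.861 in GMP, with H3K27ac of 1.22 and 0.260. Among lists with no 2-fold enhancer, the largest differences included those of Blnk, Cd74 and Prg2, with ratios of -0.30, -0.64 and -0.41. The 6 measured sort markers had a median of -0.23. In these pooled sorts, a site bound in fewer cells and a site bound less in each cell cannot be told apart, and the part of other cells was not tested.

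The genes of both factors held near the general level. At Spi1, listed under its older symbol Sfpi1, the PU.1 sum over 12 enhancers was 7.89 in LSK, 15.7 in preGM, 8.10 in Cebpa KO preGM and 18.1 in GMP, a centred log2 ratio of 0.24 with no 2-fold enhancer. Its largest ratio, 0.69, was at chr2:90929094-90929198, where PU.1 was 2.83 in preGM and 4.67 in GMP. At Cebpa the sum over 16 enhancers was 35.8 in LSK, 48.7 in preGM, 26.9 in Cebpa KO preGM and 40.8 in GMP, a ratio of -0.11. Its strongest PU.1 enhancer, at chr7:35936013-35936072, had 10.7 in LSK, 19.2 in preGM, 7.43 in Cebpa KO preGM and 19.1 in GMP. The largest H3K27ac differences at Cebpa, such as 4.09 in preGM and 12.7 in GMP at chr7:35905728-35905889, came with PU.1 of 1.93 and 1.67.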

How the data were processed

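The authors deposited 1 table of 44002 mm9 enhancers with an assigned gene, stage and factor classes, and 1 signal value per enhancer and group. No source used here says how libraries were pooled or scaled into this deposited signal. Bowtie2, MACS2 and bedtools are listed, with no version or role, per the submitters' processing notes. Per the labels' protocols, E. coli DNA could be added to the precipitated DNA before library preparation. Of 32 value columns, 13 were matched to groups of 2 libraries each (26 in all) and 19 were not used, 6 of them expression values. With no library totals, no interval or floor was computed.

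Log2 ratios used pseudocounts of 0.6 (PU.1), 0.7 (H3K27ac) and 2 (H3K4me1) and were centred on the median enhancer. Gene sums used the pseudocount times the number of enhancers and a 1.5-fold threshold. A gene's strongest enhancer had the highest mean PU.1 over 4 columns. Share of signal moved is the summed absolute difference of column shares divided by 2. Scripts ran in Python 3.11.15 with numpy 2.4.6 and pandas 2.3.3 and were tested on simulated data.

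The comparison, the lists and the rule for naming genes were chosen with earlier results of these data known. The rule names the 6 most extreme enhancers and gene sums on each side, up to 5 enhancers of each pairing with H3K27ac, list members at least 2-fold different (at most 5 a list), 5 genes with both classes, Spi1 and Cebpa. Some named enhancers are counted only. Some genes that this rule names are not reported here. Sgms2, Gsr, Lyst, Tacc3, Mpo, Ctsg and Meis1 were chosen after their values were seen. Enhancer sequences were not used here.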

Additional observations from a re-analysis of the deposited data

How the results depend on the processing

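No paired analysis was possible because the table does not separate the 2 libraries of a group, and for the same reason no library could be left out in turn. The counts depended most on the pseudocount. With a PU.1 pseudocount of 0.15 there were 1538 enhancers higher and 724 lower, and 576 genes higher and 433 lower; with 2.4 there were 75 and 27 enhancers, and 60 and 77 genes. Centring on the upper quartile of PU.1 signal gave 662 enhancers higher and 128 lower. Without centring 186 genes were higher and 432 lower. The H3K27ac difference between the classes was 0.87 with an H3K27ac pseudocount 4 times smaller and 0.25 with one 4 times larger. The Spearman correlation of PU.1 with H3K27ac was 0.231 over the 24366 enhancers past a filter on low PU.1 signal and 0.218 with 1 enhancer per gene. No difference or correlation changed sign under any of these settings. Leaving out enhancers far above the rest of a column removed 0 enhancers at the limit set, so it tested nothing. Of 54 list medians recomputed, 41 stayed within 0.1 or 1.5-fold and 13 moved, none of at least 0.1 in size changing to the opposite sign at that size. The number of lists with a median above 0 was 5 of 18, and between 5 and 7 under the other settings for lists, but 12 when columns were scaled to their sums. Depth per library is unknown, and differences at signals near 0.6 rest on little signal.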

Other observations

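Neighbouring enhancers had like PU.1 ratios only over short distances, whether assigned to the same gene or to different genes. For adjacent enhancers of the same gene, Spearman's rho of the ratios was 0.550 over 10858 pairs with a gap under 500 bp. It was 0.249 over 7833 pairs with a gap of 500 to 1000 bp, and 0.103 over 7175 pairs with a gap of 1000 to 5000 bp. It was 0.0514 over 2946 pairs with gaps of 20000 to 100000 bp. For adjacent enhancers of different genes, rho was 0.398 over 137 pairs under 500 bp and 0.317 over 172 pairs at 500 to 1000 bp. Close pairs can share DNA fragments, and their part in these values was not tested. After joining enhancers less than 1000 bp apart, the 441 GMP-higher enhancers formed 385 sites and the 236 GMP-lower ones 213.

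The strongest PU.1 enhancers differed little, and mostly downward from the median enhancer. Among the 441 enhancers in the top 1% of mean PU.1 signal over both stages, all above a mean signal of 27.1, the median ratio was -0.26. Only 80 of them had a ratio above 0, 2 were GMP-higher, in Arf6 and Zfp821, and 1 was GMP-lower. By quintiles of mean PU.1 signal the median ratio was 0.11 in the lowest and -0.11 in the highest quintile. These values depend on the zero point. The PU.1 column sum of GMP was 0.887 times that of preGM, and the centring took out a median log2 ratio of only -0.07. The medians by signal were not recomputed at the other zero points.

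The opposite extreme of the PU.1 ratio, the GMP-lower side, had its largest values in Gtf3c5, Clnk and Atoh8. At the Clnk enhancer PU.1 was 5.03 in LSK, 7.02 in preGM, 2.86 in Cebpa KO preGM and 1.46 in GMP. At the Atoh8 enhancer it was 6.33, 8.71, 8.16 and 2.04 in the same order, with H3K27ac of 0.679 in preGM and 1.11 in GMP.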
